A study of Drosophila melanogaster with 2 samples.

Results

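The genes described here encode eukaryotic translation initiation factors (eIFs) and aminoacyl-tRNA synthetases of Drosophila melanogaster. They were taken by name, as every gene whose symbol in the deposited table starts with eIF or with Aats-, the older FlyBase prefix for the synthetases. This gave 49 of 13623 genes, 28 eIF genes and 21 Aats- genes. Nuclear RNA was sequenced from 2 libraries, 1 per cell type, after INTACT, a method that captures nuclei bearing an envelope tag, here on anti-FLAG beads, from homogenized whole embryos. The NSC library came from neural stem cell nuclei of embryos aged 5 to 7 h with the driver genotype Sca-Gal4/cyo, and the neuron library from embryos aged 12 to 14 h with the driver Elav-Gal4. Both strains carry the tag transgene UAS-3xFLAG-blrp-mCherry-RanGap, in a stock that also expresses BirA, and GAL4 follows the scabrous promoter in the first and the elav promoter in the second. The embryos of each collection were pooled, and those for NSCs came from parents that still carried the cyo balancer, so not every embryo need have held the driver. Driver, embryo age and cell type differ together between the libraries and cannot be told apart. With 1 library per cell type there was no replicate, so each difference below is between these libraries and has no test.

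Translation starts when the small ribosomal subunit, loaded with initiator tRNA by eIF2, is brought to the capped end of an mRNA and scans to the start codon. The cap is bound by eIF4E, which joins the scaffold eIF4G and the helicase eIF4A, while the large eIF3 complex holds the small subunit and eIF2B recharges eIF2 with GTP. Each aminoacyl-tRNA synthetase joins one amino acid to its tRNAs, and separate genes often serve the cytoplasm and the mitochondrion. Growing stem cells are known for a high demand for protein synthesis. RNA in nuclei reflects transcripts that were recently made and not yet exported, and is not a measure of translation.

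The values are FPKM, the fragments of a transcript divided by its length in kilobases and by the library's mapped fragments in units of 1e6. They are scaled to length and can be compared between genes. From the whole-fragment steps of low values, NSCs were sequenced to an estimated 65.3 M mapped fragments and neurons to 70.1 M, where M stands for 1e6. The change of a gene is log2((neuron FPKM + 1)/(NSC FPKM + 1)), and the added 1 makes changes of low genes look smaller. The 10158 genes that reached 1 FPKM in either library were compared, and a change past 1 or -1 on the log2 scale is called 2-fold. In the following, rose and fell are used only for genes past this line. Of 6 NSC marker genes 5 were lower in the neuron library, with summed levels of 291 FPKM in NSCs and 113 FPKM in neurons. All 6 neuronal markers were higher there, with sums of 72.5 and 483 FPKM. Of 11 markers of glia, muscle, trachea and hemocytes 8 were also higher in neurons, with sums of 370 and 955 FPKM and no gene listed at 0. Most of each sum came from muscle markers, at 247 and 699 FPKM, while those of trachea were level at 36.6 FPKM. The part of these 11 markers in the changes below was not tested. In such bulk libraries fewer cells of a type and less RNA per cell cannot be told apart.

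Of the 49 genes, 45 passed the filter on low values, and the 4 below 1 FPKM in both libraries were all eIF4E paralogs. The 24 eIF genes that passed had a median log2 change of -0.06 and the 21 Aats- genes a median of 0.60, beside 0.14 over all genes compared. Of the eIF genes 1 rose and 2 fell by at least 2-fold. Of the Aats- genes 9 rose and none fell, and at any size 16 were higher in neurons and 5 lower. Over all genes compared 26.9% rose and 16.6% fell by this measure, whereas 54.3% were higher and 45.7% lower at any size. Scaling both libraries to the same sum of FPKM (TPM scaling) raised the neuron to NSC ratio of each gene by 0.27 on the log2 scale and the median of all genes compared to 0.38. Under it the eIF median was 0.20 and the Aats- median 0.86. The eIF median thus turned positive, and stayed under that of all genes, as the Aats- median stayed above it.

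The eIF genes were also the more abundant. In each library 15 of the 28 lay at or above the 90th percentile of all genes, compared with 1 Aats- gene in NSCs and 2 in neurons. Summed over all 28 genes the eIF level was 8966 in NSCs and 6325 FPKM in neurons, or 1.11% and 0.945% of all FPKM. The 21 Aats- genes summed to 598 and 834 FPKM, or 0.0742% and 0.125%. Counting error was small at this depth for the 45 genes that passed the filter, eIF4E-3 apart. Among these 45, the gene with the fewest fragments after eIF4E-3 was Aats-ser, with about 374 in NSCs. For only 3 of the 45 (eIF-2alpha, eIF2B-epsilon and Aats-pro) did the 95% counting interval of the neuron to NSC ratio include 1. These intervals leave out all variation between preparations.

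**Figure D1:**
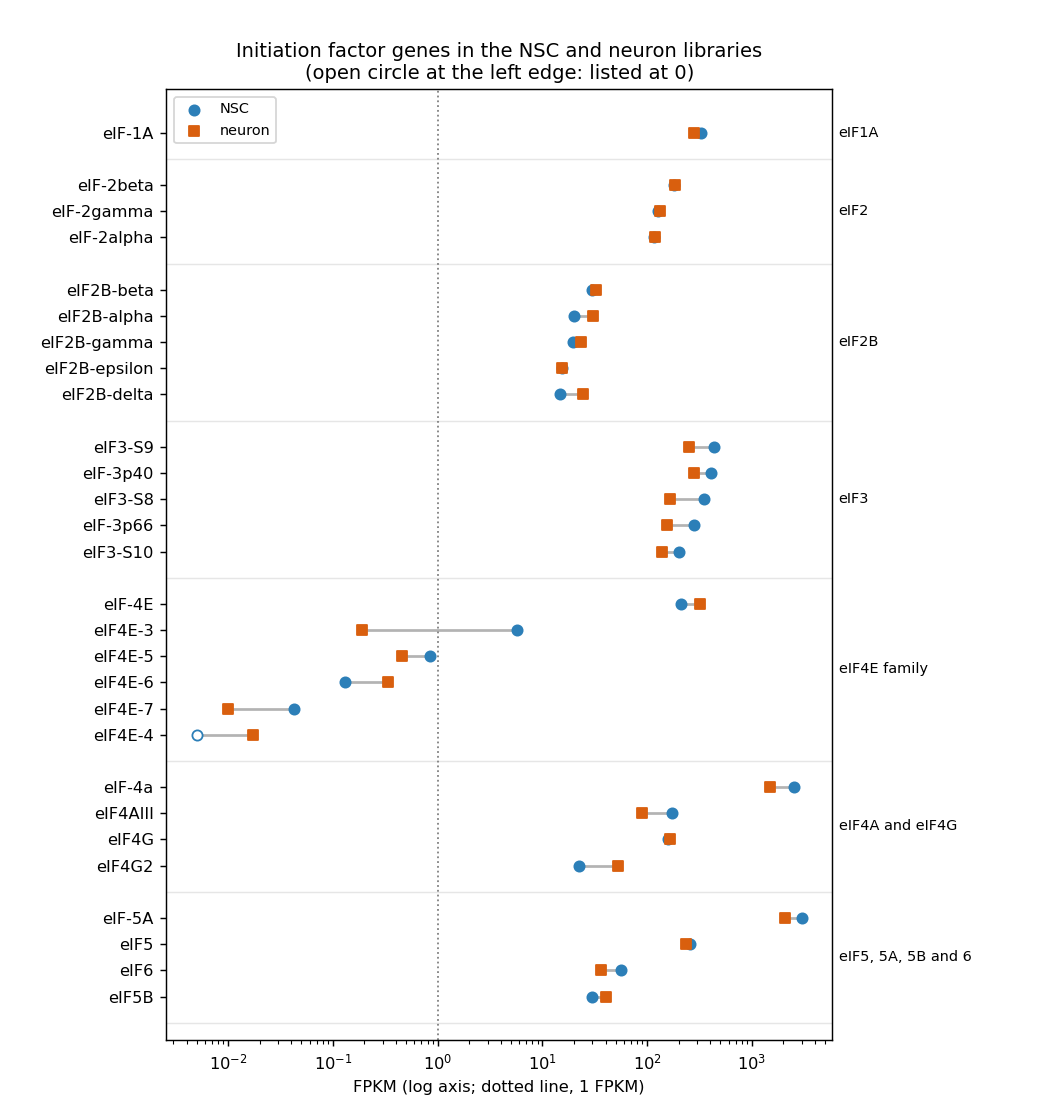
FPKM of the 28 eIF genes (horizontal log axis) in the NSC library (circles) and the neuron library (squares), grouped by the factor they encode, with 1 library per point. The eIF3 genes lie to the left in neurons, the eIF2 genes nearly coincide, and 5 of the 6 eIF4E genes lie far below eIF-4E.

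The first steps of initiation were nearly level between the libraries. The gene for eIF1A, which with eIF1 opens the small subunit for scanning, was at 324 FPKM in NSCs and 281 FPKM in neurons (eIF-1A, log2 change -0.20, or 0.06 under TPM scaling). The eIF2 subunits carry initiator tRNA. The alpha subunit, whose phosphorylation slows initiation under stress, was at 116 FPKM in NSCs and 119 FPKM in neurons (eIF-2alpha). The beta subunit gene was at 180 and 185 FPKM (eIF-2beta), and that of the GTP-binding gamma subunit at 128 and 134 FPKM (eIF-2gamma). Their log2 changes lay between 0.04 and 0.06, the narrowest spread of any complex here. Levels differed between the subunits by at most 1.55 times in NSCs and 1.56 times in neurons. The eIF-2gamma gene shares 15.98% of its exonic bases with Su(var)3-9, a histone methyltransferase gene on the same strand that was at 32.3 and 13.0 FPKM, so reads of the pair may have been divided between them.

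The exchange factor eIF2B was the least abundant of the core complexes, with a median of 19.5 FPKM in NSCs and 24.2 FPKM in neurons, compared with 128 and 134 FPKM for eIF2. None of its 5 genes passed 2-fold, and all 5 had a neuron level above the NSC level, by little for epsilon. The catalytic epsilon subunit was at 15.3 FPKM in NSCs and 15.4 FPKM in neurons (eIF2B-epsilon), and its partner gamma at 19.5 and 23.3 FPKM (eIF2B-gamma). Of the regulatory subunits, which sense the phosphorylation of eIF2, alpha was at 19.8 and 30.3 FPKM (eIF2B-alpha). The beta subunit was at 29.6 and 32.7 FPKM (eIF2B-beta), and delta at 14.8 and 24.2 FPKM, the widest difference of the 5 with a log2 change of 0.67 (eIF2B-delta).

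All 5 eIF3 genes had lower levels in neurons, with a median log2 change of -0.79. The core scaffold subunit eIF3c (symbol eIF3-S8, FBgn0034258) fell to 165 FPKM in neurons from 349 FPKM in NSCs (log2 change -1.08), the only eIF3 member past 2-fold. Under TPM scaling its log2 change was -0.81, so that call was lost. The other scaffold subunits were eIF3b at 438 and 253 FPKM (eIF3-S9) and eIF3a at 203 and 140 FPKM (eIF3-S10). The cap-contacting subunit eIF3d was at 280 FPKM in NSCs and 154 FPKM in neurons (eIF-3p66, log2 change -0.86), and eIF3h at 409 and 278 FPKM (eIF-3p40, -0.56). The 5 genes thus spanned a range of 2.15 times in NSCs and 1.99 times in neurons. Each stayed lower in neurons under TPM scaling, with a median of -0.52. The eIF-3p40 gene shares 16.8% of its exonic bases with senju (CG14040 in the table) on the other strand, which was at 11.2 and 23.9 FPKM.

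Further eIF3 genes stand in the table under other symbols. With them there were 16 genes, of which 14 passed the filter, and all 14 were lower in neurons, 2 of them by at least 2-fold. Over all genes compared 45.7% were lower and 16.6% fell by 2-fold. The median log2 change of the 14 was -0.70. Under TPM scaling 13 of 14 remained lower with a median of -0.49, none of them past 2-fold. The exception was the loosely bound subunit eIF3j (Adam), with 103 in NSCs and 98.3 FPKM in neurons (log2 change -0.07, or 0.20 under TPM scaling). The largest difference was that of eIF3g (CG8636, named after its values were seen), which fell from 482 to 219 FPKM (-1.14, or -0.87 under TPM scaling). The eIF3k gene was at 415 and 234 FPKM (CG10306) and the eIF3e gene at 323 and 206 FPKM (Int6). A paralog of eIF3f, eIF3f2 (CG8335), was near the filter with 1.21 in NSCs and 0.408 FPKM in neurons, while eIF3f1 was at 280 and 225 FPKM (CG9769). The genes that did not pass were eIF3g2 (CG10881), at 0 and 0.0187 FPKM, and eIF3d2 (CG4810), listed at 0 in both libraries.

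**Figure D2:**
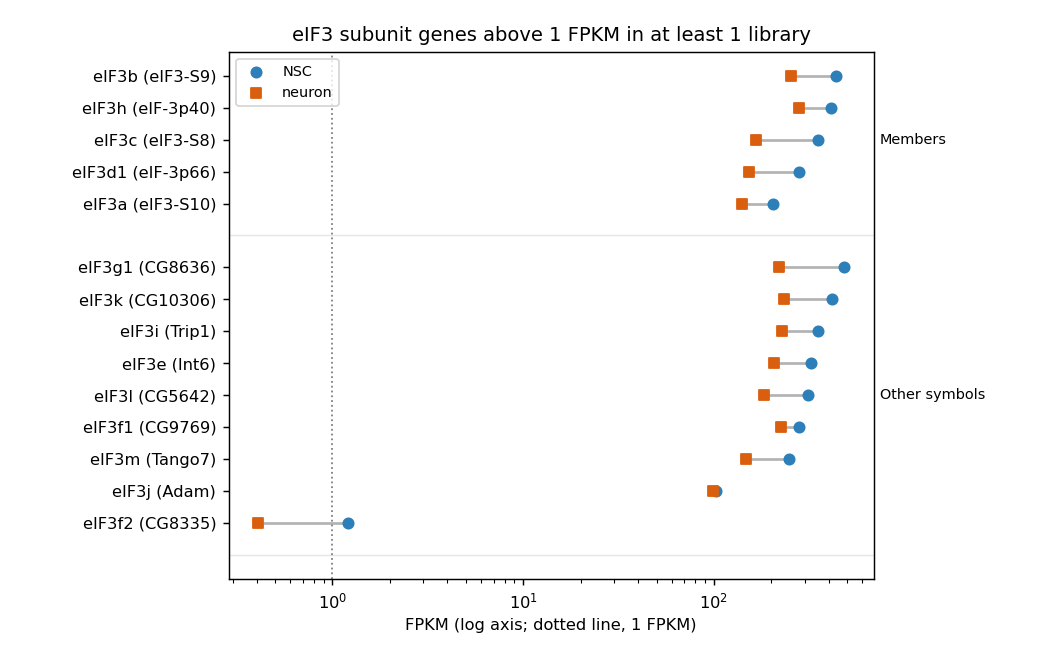
FPKM (horizontal log axis) of the 14 eIF3 subunit genes with at least 1 FPKM in at least 1 library, in NSCs (circles) and neurons (squares), with the table symbol in brackets. Each gene is lower in neurons, Adam by the least, and eIF3f2 lies near 1 FPKM while the others lie at 98.3 FPKM or more.

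The parts of the cap-binding complex moved differently. The cap-binding protein gene eIF-4E was at 208 in NSCs and 321 FPKM in neurons (log2 change 0.62). The helicase gene eIF-4a was at 2548 and 1481 FPKM (log2 change -0.78). The level of eIF-4a was therefore 12.2 times that of eIF-4E in NSCs and 4.61 times in neurons. The main scaffold gene eIF4G was at 157 FPKM in NSCs and 166 FPKM in neurons (log2 change 0.08). Its paralog eIF4G2 (FBgn0260634), which in flies is known for its role in male meiosis, rose from 22.3 to 52.5 FPKM, 2.36 times as high, with a log2 change of 1.20. It was the only eIF member that rose by 2-fold, and the ratio of eIF4G to eIF4G2 went from 7.03 in NSCs to 3.16 in neurons. A same-strand gene, CG33111, shares 8.56% of the eIF4G2 exonic bases and was at 22.2 FPKM in NSCs and 46.8 FPKM in neurons. The gene eIF4AIII encodes a helicase of the exon junction complex, which marks spliced mRNA in the nucleus. It was at 172 FPKM in NSCs and 89.5 FPKM in neurons, and with a log2 change of -0.94 it was the member nearest to 2-fold on the inner side.

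Drosophila has several further eIF4E genes, known mainly from the testis. The gene eIF4E-3 (FBgn0265089), needed for male meiosis in flies, had the largest change of all members. It fell to 0.189 FPKM in neurons from 5.66 FPKM in NSCs (log2 change -2.49), 30.0 times lower with a 95% counting interval of 16.7 to 61.2 times. These values rest on about 310 fragments in NSCs and 11.1 in neurons. With a pseudocount of 0.1 its log2 change was -4.32, and with 5 it was -1.04. The level of eIF-4E was 36.8 times that of eIF4E-3 in NSCs and 1702 times in neurons. The testis marker mia moved likewise, from 13.2 to 0.962 FPKM, whereas can was at 0 and 0.349 FPKM and bam at 4.004 and 1.53 FPKM. The summed level of these 3 markers was 17.2 in NSCs and 2.84 FPKM in neurons, and their part in the fall of eIF4E-3 was not tested.

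The remaining paralogs were below 1 FPKM in both libraries. The highest was eIF4E-5, at 0.842 FPKM in NSCs and 0.457 FPKM in neurons, or about 45.1 and 26.3 fragments. Its neuron to NSC ratio of 0.543 had a counting interval of 0.319 to 0.891. For eIF4E-6 the levels were 0.129 and 0.335 FPKM, from about 4.10 and 11.4 fragments, and the interval of the ratio (0.759 to 11.03) included 1. The gene eIF4E-7 was at 0.0426 and 0.0100 FPKM, from about 4 fragments and 1 fragment, and no difference was detectable at this depth. Last, eIF4E-4 was listed at 0 in NSCs, which at this depth allows up to about 0.0553 FPKM (3 fragments), and at 0.0173 FPKM in neurons, which is 1 fragment.

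The factors of start site recognition and subunit joining were at 254 FPKM in NSCs and 233 FPKM in neurons for eIF5, which triggers GTP hydrolysis by eIF2, and at 29.4 and 40.6 FPKM for eIF5B, which joins the large subunit. The log2 change of eIF5 was -0.12 as deposited and 0.15 under TPM scaling, and its gene shares 80.8% of its exonic bases with another annotated gene, CG46312, on the same strand. The anti-association factor eIF6, which also takes part in making the large subunit, was at 56.0 and 36.5 FPKM. The highest of all members was eIF-5A, at 2988 FPKM in NSCs and 2069 FPKM in neurons (log2 change -0.53). Its product is now regarded mainly as an elongation factor that eases peptide bond formation at difficult sequences, and the reference calls the gene eEF5.

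**Figure D3:**
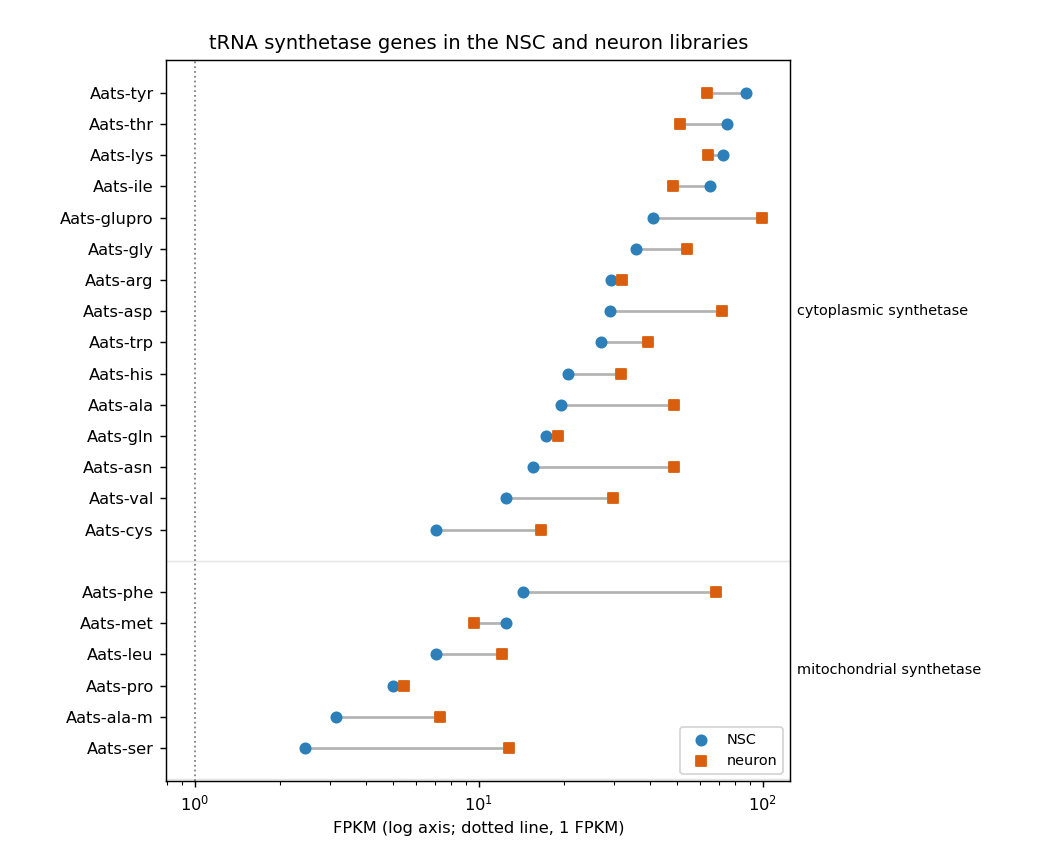
FPKM of the 21 Aats- genes (horizontal log axis) in the NSC library (circles) and the neuron library (squares), split by compartment and ordered by NSC level, with 1 library per point. The 4 highest genes in NSCs were lower in neurons, and 16 of the other 17 cytoplasmic and mitochondrial genes were higher, Aats-met being the exception.

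Of the 21 Aats- genes, 15 encode cytoplasmic enzymes by their reference names and 6 mitochondrial ones. The older symbols do not show this, since Aats-leu, Aats-met, Aats-phe, Aats-pro and Aats-ser are LeuRS-m, MetRS-m, PheRS-m, ProRS-m and SerRS-m in the reference. Among the 15 cytoplasmic genes 6 rose by at least 2-fold. The asparagine enzyme gene Aats-asn (FBgn0086443) rose from 15.5 in NSCs to 48.6 FPKM in neurons, which on the log2 scale was 1.59 and the largest of the 15. The alanine enzyme rose from 19.4 to 48.7 FPKM (Aats-ala, 1.28) and the aspartate enzyme from 29.1 to 71.7 FPKM (Aats-asp, 1.27). The bifunctional enzyme for glutamate and proline rose from 41.0 to 99.5 FPKM, which made it the highest synthetase gene in neurons (Aats-glupro, 1.26). The valine enzyme rose from 12.5 to 29.6 FPKM (Aats-val, 1.18) and the cysteine enzyme from 7.05 to 16.5 FPKM (Aats-cys, 1.12). Antisense RNA genes overlap 63.9% of the exonic bases of Aats-asp and 16.6% of those of Aats-glupro, and with strand use not stated their reads cannot be told apart there. In each of the 6 genes the neuron level was between 2.34 and 3.13 times the NSC level.

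The other 9 cytoplasmic genes stayed within 2-fold. Higher in neurons were those for histidine at 20.6 and 31.7 FPKM (Aats-his, log2 change 0.60), glycine at 35.7 and 54.0 FPKM (Aats-gly, 0.58) and tryptophan at 26.9 and 39.6 FPKM (Aats-trp, 0.54). The genes for glutamine, at 17.2 and 19.1 FPKM (Aats-gln, 0.14), and arginine, at 29.1 and 31.9 FPKM (Aats-arg, 0.13), were nearly level. The genes with the highest NSC levels were the ones lower in neurons. The tyrosine enzyme gene was at 87.1 FPKM in NSCs and 63.5 FPKM in neurons (Aats-tyr, -0.45), and that for threonine at 74.6 and 51.3 FPKM (Aats-thr, -0.53). The lysine gene was at 72.6 and 64.2 FPKM (Aats-lys, -0.18, or 0.09 under TPM scaling) and the isoleucine gene at 65.0 and 48.3 FPKM (Aats-ile, -0.42). The 15 levels ran from 7.05 to 87.1 FPKM in NSCs, where the highest was 12.4 times the lowest, and from 16.5 to 99.5 FPKM in neurons, where it was 6.02 times the lowest. Across the 21 Aats- genes the log2 change had a Spearman correlation with the NSC level of -0.51, beside -0.56 over the genes compared that matched the reference. Both use the NSC level on each axis, which pulls the correlation below 0.

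The largest rises among the Aats- genes were those of the mitochondrial phenylalanine and serine enzymes. With a pseudocount of 5, Aats-ser (1.26) was below the cytoplasmic Aats-asn (1.39). The phenylalanine enzyme gene (Aats-phe, FBgn0275436) rose from 14.4 in NSCs to 68.6 FPKM in neurons, 4.77 times as high with a log2 change of 2.18. The serine enzyme gene (Aats-ser, FBgn0021750) rose from 2.44 to 12.8 FPKM, 5.25 times as high (log2 change 2.00, and 1.26 with a pseudocount of 5). Its exons share 13.9% of their bases with Nagk (CG6218 in the table), a gene on the other strand that was at 11.2 FPKM in NSCs and 55.8 FPKM in neurons. Reads of that pair cannot be told apart there either. The mitochondrial alanine enzyme rose from 3.13 to 7.28 FPKM (Aats-ala-m), and its log2 change of 1.002 was the nearest of all members to 2-fold on the outer side. The genes for leucine, at 7.06 and 12.1 FPKM (Aats-leu, 0.70), and proline, at 4.99 and 5.46 FPKM (Aats-pro, 0.11), stayed within 2-fold. Aats-met was at 12.5 FPKM in NSCs and 9.63 FPKM in neurons (-0.34).

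Among synthetase genes listed under other symbols, the reference names gave 12 more, 3 cytoplasmic and 9 mitochondrial. Of these 5 rose by at least 2-fold and none fell, with a median log2 change of 0.74. By compartment the median was 0.78 for the 3 cytoplasmic and 0.27 for the 9 mitochondrial genes. Of those 9 genes 6 were higher in neurons and 3 lower. The cytoplasmic methionine enzyme rose from 9.22 in NSCs to 31.8 FPKM in neurons (CG15100, 1.68). The mitochondrial genes that rose were those for cysteine, from 1.43 to 7.76 FPKM (CG8257, 1.85), isoleucine, from 2.49 to 9.42 FPKM (CG5414, 1.58), tryptophan, from 4.03 to 12.0 FPKM (CG7441, 1.37), and valine, from 1.39 to 3.90 FPKM (CG5660, 1.03). The mitochondrial aspartate enzyme had the highest NSC level of the 12 and was lower in neurons, with 65.2 in NSCs and 34.5 FPKM in neurons (CG31739, -0.90). With these, 14 of 33 synthetase genes rose by at least 2-fold and none fell, beside 26.9% and 16.6% of all genes compared. Those that rose were 7 of 18 cytoplasmic and 7 of 15 mitochondrial genes. Apart from Aats-phe, the mitochondrial genes that rose were at 4.03 FPKM or less in NSCs, where a higher pseudocount lowers the change most. These counts were not repeated with a pseudocount of 5, under which Aats-ala-m, Aats-cys and Aats-val stayed under 2-fold. Among all 33 genes the median log2 change was 0.65 for the cytoplasmic and 0.70 for the mitochondrial ones. The subunits of the cytoplasmic phenylalanine enzyme, outside this naming pattern and added after values were seen, were at 20.3 and 37.8 FPKM (CG2263) and at 12.8 and 21.2 FPKM (CG5706).

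**Figure D4:**
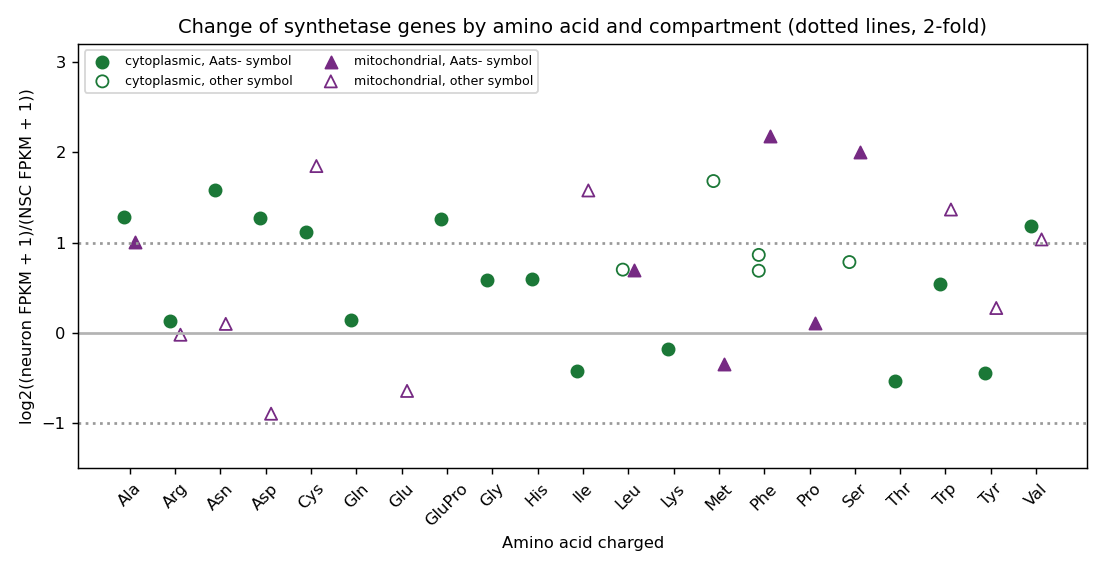
Log2 change of the synthetase genes (vertical axis) by the amino acid charged, for cytoplasmic (circles) and mitochondrial (triangles) enzymes, filled for Aats- symbols and open for other symbols, with 1 gene per point and the phenylalanine subunits as a pair of circles. No gene is below -1, and genes past 1 are found in both compartments.

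Synthetases fall into families of unrelated fold, class I and class II. Over all genes compared 26.9% rose by at least 2-fold, the share to set beside each count here. Of 11 class II genes 6 rose by at least 2-fold, with a median log2 change of 1.002. Of 9 class I genes 2 rose, with a median of 0.14, and Aats-glupro, which holds a domain of each, was left out of both. At a pseudocount of 1 this difference was not seen once the synthetases under other symbols were counted too. All 5 of those that rose are class I. Then 7 of 18 class I and 6 of 14 class II genes rose, with medians of 0.62 and 0.69. Apart from CG15100, those 5 were low, at 1.39 to 4.03 FPKM in NSCs. With a pseudocount of 5 the class I members Aats-cys and Aats-val and the class II member Aats-ala-m stayed under 2-fold. The wider class counts were not repeated at that setting. In animals a group of synthetases is held in a large multi-synthetase complex. The 6 members here that belong to it in mammals (for arginine, aspartate, glutamine, glutamate with proline, isoleucine and lysine) had a median of 0.14, and 2 of them rose. With the cytoplasmic leucine and methionine enzymes (CG33123 and CG15100), which also belong to it, the median was 0.42 and 3 of 8 rose. No test was possible for the difference between these classes, since each rests on the same pair of libraries.

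To place the members among related genes, other translation genes were examined. A list of 16 initiation factors under other symbols, none past 2-fold, had a median log2 change of -0.45, which was -0.18 under TPM scaling. That list leaves out 7 genes found later by their reference names. With these 20 of 23 passed the filter, 2 fell (CG8636 and the mitochondrial factor mIF3, CG13163) and the median was again -0.45. Under TPM scaling the log2 changes of CG8636 and mIF3 were -0.87 and -0.75, so neither stayed past 2-fold. The highest of the list was NAT1, an eIF4G relative of cap-independent translation, at 119 FPKM in NSCs and 213 FPKM in neurons (0.83, or 1.09 under TPM scaling). The cap-binding repressor 4EHP was at 56.2 and 59.9 FPKM. Among 20 regulators of initiation 1 rose and 3 fell, beside 26.9% and 16.6% of all genes compared. The eIF4E-binding protein gene mxt (CG2950 in the table) rose from 7.03 to 62.1 FPKM (2.97). The eIF4E partner cup, a repressor of maternal mRNA, fell from 30.7 to 7.38 FPKM (-1.92). Of 5 germline and maternal marker genes 4 were lower in neurons, with sums over the 5 of 69.5 and 37.2 FPKM, and their part in this fall was not tested. The other, vas, rose from 6.48 to 15.6 FPKM (1.15), and bam is also among the testis markers above. Pdcd4, which in mammals inhibits eIF4A, fell from 318 to 117 FPKM (-1.43), and Paip2, an inhibitor of the poly(A)-binding protein, from 102 to 43.1 FPKM (-1.22, or -0.96 under TPM scaling). Thor, the fly 4E-BP that blocks eIF4E, was at 143 FPKM in NSCs and 258 FPKM in neurons (0.85, or 1.11 under TPM scaling). The eIF2alpha kinase genes were at 15.6 and 10.7 FPKM for Gcn2 and at 50.9 and 27.0 FPKM for PEK. The gene crc, which encodes the fly ATF4 whose translation goes up when eIF2alpha is phosphorylated, was at 263 and 308 FPKM (0.23).

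Of 11 elongation and release factor genes 2 rose and 1 fell, with a median log2 change of 0.06. For this list and the groups below, the shares over all genes compared were 26.9% rising and 16.6% falling. The abundant elongation factor gene Ef1alpha48D was at 7756 FPKM in NSCs and 5203 FPKM in neurons, while its paralog Ef1alpha100E rose from 2.32 to 12.4 FPKM (2.02). The exchange factor subunit Ef1beta fell from 1329.5 to 628 FPKM (-1.08, or -0.81 under TPM scaling), and the mitochondrial factor EfTuM rose from 40.9 to 119 FPKM (1.52). Among the most similar large groups, cytoplasmic ribosomal protein genes had a median log2 change of -0.38 (91 genes, 1 rose and 6 fell) and mitochondrial ribosomal protein genes one of 0.08 (72 genes, 4 rose and 1 fell). The eIF3 median (-0.79) was below, and the Aats- median (0.60) above, both of these medians. Under TPM scaling the values were -0.11 for cytoplasmic and 0.34 for mitochondrial ribosomal protein genes.

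**Figure D5:**
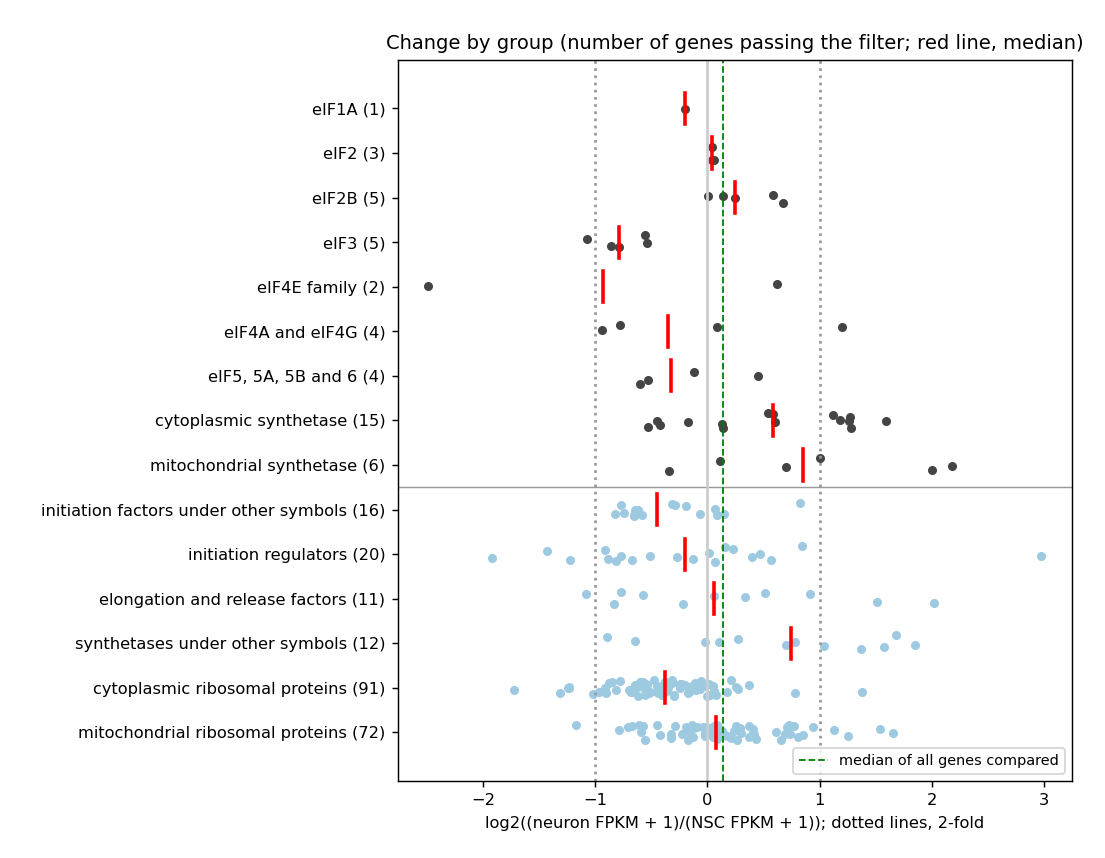
Log2 change (horizontal axis) of each gene that passed the filter, by group, with members in dark grey above the line and other translation genes in light blue below it. Red bars are group medians and the dashed line is the median of all genes compared. The eIF3 genes lie between -1.08 and -0.54 and both synthetase groups reach past 1.

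The change was also set against gene length. Over the 45 genes the log2 change had a Spearman correlation with genomic span of 0.17 and with exonic length 0.24, beside 0.27 and 0.19 over the genes compared that matched the reference. All these points share the same pair of libraries. Exonic bases are shared with another annotated gene in 22 of the 49 genes, and in 7 of them (eIF-2alpha, eIF-2gamma, eIF-3p40, eIF5, Aats-asp, Aats-glupro and Aats-ser) the share is at least 10%. Without these 7, of the 38 genes left 7 rose and 2 fell, and the medians were -0.099 for eIF genes and 0.56 for Aats- genes.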

How the data were processed

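The authors removed DNA from nuclear RNA, sequenced it on an Illumina HiSeq, aligned reads to FlyBase transcripts with TopHat 1.3.1 and ran Cuffdiff 1.3.0 on those that mapped uniquely (build dm3 per the labels). The deposited table holds the FPKM of the authors, 1 per gene and library. Read length, strand use and read totals are not given in the sources used here. The labels describe cross-linked embryos and the study's methods uncrosslinked ones for RNA.

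The table holds its header line 13624 times, between 13623 gene rows; the repeats were dropped and each value was checked to be a number of at least 0. Each column matched 1 sample by name. Reference names, exonic lengths and overlaps came from RefSeq release 6 and Ensembl release 115, another assembly, so no coordinates are given; all 49 members and 13523 of 13623 genes matched. Depth was estimated from FPKM times exonic length less 200 bp, and counting intervals are 95% exact binomial. Depth and call code were tested on simulated data. Calculations used Python 3.11.15, pandas 2.3.3 and scipy 1.17.1.

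The members, gene lists and tests were chosen with earlier results of these data known. Every member was named with its values; of other lists, the extremes and 2-fold genes (at most 5), plus genes of stated roles chosen after their values were seen. Alternatives varied the pseudocount, the filter and the scaling. No sequence is printed, since none was in the files used.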

Additional observations from a re-analysis of the deposited data

How the results depend on the processing

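The number of members that rose by at least 2-fold was 10 as reported, 7 with a pseudocount of 5, and 7 without genes that share at least 10% of their exonic bases, a setting added after seeing the data. With a pseudocount of 5, Aats-ala-m (0.59), Aats-cys (0.84) and Aats-val (0.99) stayed under 2-fold. The number that fell, all of them eIF genes, was 2 as reported and 1 under TPM scaling, upper quartile scaling, or a filter of 1 FPKM in both libraries. Under both scalings eIF3-S8 was the one lost (-0.81 and -0.93), and the last setting leaves out eIF4E-3. Over all genes compared, 16.6% fell as deposited, 11.2% under TPM scaling and 13.4% under upper quartile scaling. The shares that rose were 26.9%, 32.2% and 29.7%, while 10 members rose under each. The median of eIF genes changed sign, to 0.20 with TPM scaling, 0.084 with upper quartile scaling and 0.0053 with that filter. The Aats- median was 0.86 and 0.74 under the same scalings. By construction these scalings raise every ratio. Under TPM scaling eIF-1A, eIF5 and Aats-lys changed sign within 2-fold, and eIF5 did so under upper quartile scaling. A pseudocount of 0.1 and median scaling kept the direction and call of all 45 members. The planned search for promoter letters was not run, as no sequence was used here. No paired analysis was possible because each group has 1 library. Depth limits eIF4E-4, eIF4E-6 and eIF4E-7 most, and the size of the fall of eIF4E-3, which rests on 11.1 fragments in neurons. Counting intervals of the ratio also included 1 for eIF-2alpha, eIF2B-epsilon and Aats-pro.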

Other observations

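The ratio of the cytoplasmic to the mitochondrial enzyme gene was nearly level between the libraries for some amino acids and not for others. The level of Aats-ala was 6.20 times that of Aats-ala-m in NSCs and 6.70 times in neurons. For leucine, CG33123 was at 2.18 and 2.12 times the level of Aats-leu, and for arginine, Aats-arg at 5.25 and 5.86 times that of CG10092. For aspartate the mitochondrial gene was the higher in NSCs and the cytoplasmic one in neurons, with CG31739 at 2.24 times the level of Aats-asp in NSCs and 0.482 times in neurons. The order turned the same way for methionine, with the cytoplasmic gene CG15100 at 0.738 times the level of Aats-met in NSCs and 3.30 times in neurons. It turned the other way for phenylalanine, with the cytoplasmic subunit gene CG2263 at 1.42 times the level of Aats-phe in NSCs and 0.552 times in neurons. The cytoplasmic to mitochondrial ratio was also smaller in neurons for serine (13.7 and 4.55) and cysteine (4.91 and 2.13), and larger for asparagine (2.77 and 8.01). For isoleucine, Aats-ile was at 26.1 times the level of CG5414 in NSCs and 5.13 times in neurons. A ratio between genes of 1 library is not moved by the scaling of that library. These ratios were chosen after their values were seen and have no replicate.

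Of the mitochondrial initiation factors, mIF3 (CG13163) was at 18.5 FPKM in NSCs and 8.77 FPKM in neurons, just past 2-fold. Under TPM scaling its log2 change was -0.75, within 2-fold. The other, mIF2 (CG12413), was at 5.28 and 8.002 FPKM.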
